A study of Mus musculus with 12 samples.

Results

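The levels of 10 genes, called members below, were followed in the hippocampus of APP/PS1 mice. Of these, Spp1, Gpnmb, Lgals3, Cd9, Fabp5 and Lyz2 are known to be expressed by microglia around amyloid plaques. The others were the TAM receptors Axl and Mertk and the TAM ligands Gas6 and Pros1. The members were chosen by name, as the rows for these symbols in a count table of 55573 genes. All 10 of 10 were found and passed the expression filter, which left 15521 genes to test. The question was which of them were already higher in APP/PS1 mice at the age of 4.5 months. The APP/PS1 mice (APPSwe/Ps1dE9) were on the C57BL/6J strain, as were the wild-type (WT) mice of the same age. The transgenes of the APP/PS1 mice, each placed behind a prion promoter element, encode APP built from mouse and human sequence with the Swedish mutations and a human PS1 from which an exon is missing. One right hippocampus per animal was dissected whole and made into 1 library, in 4 females and 4 males of APP/PS1 and in 2 females and 2 males of WT, 12 libraries in all.

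TAM receptors are receptor tyrosine kinases that recognise dying cells through bridging ligands. The ligands Gas6 and protein S, the product of Pros1, bind phosphatidylserine on the dying cell at one end and a TAM receptor at the other. Axl and Mertk serve the clearance of apoptotic cells by macrophages and microglia, and Axl is known to be induced in inflammation. In models of amyloid deposition, microglia at plaques switch on a set of genes for lipid handling, lysosomes and adhesion, to which the other 6 members belong. A library of whole tissue holds RNA of all cell types, so fewer cells of a type and less RNA per cell cannot be told apart.

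At 4.5 months 4 of the 10 members were higher in APP/PS1 mice with both sexes averaged: Axl, Pros1, Cd9 and Lyz2. Lyz2 rose most, 3.91-fold, whereas Axl, Pros1 and Cd9 rose by 1.27-, 1.33- and 1.42-fold. No member fell. Mertk, Gas6, Spp1, Gpnmb, Lgals3 and Fabp5 did not pass the test of edgeR's quasi-likelihood model at a Benjamini-Hochberg false discovery rate (FDR) under 0.1. Of all 15521 genes tested, 1.91% passed in either direction and 1.75% passed with higher counts in APP/PS1. At an unadjusted p under 0.05, 5 of the 10 members passed against 9.68% of all genes, and the fifth was Fabp5. The median log2 fold change was 0.22 over the 10 members and 0.01 over all genes.

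Depth ranged from 36714316 to 50643565 counts per library. In WT female 2, APP/PS1 female 1 and APP/PS1 male 2, choroid plexus RNA was abundant: Ttr, the transthyretin gene of choroid plexus, stood at 3526 to 6318 normalized CPM (counts relative to library size, scaled to the upper quartile of each library) against 2.68 to 18.2 in the other 9. The fitted log2 fold changes come from a model with 2 factors of unwanted variation (RUV), so they need not equal the ratio of group means. Neither App nor Prnp separated the genotypes in these counts: App lay between 1538 and 1648 in APP/PS1 and between 1534 and 1720 in WT. Thy1, singled out after its values were seen, lay between 2187 and 3305 CPM in APP/PS1 and between 724 and 750 in WT. The summed level of 12 microglia markers was 517 to 771 CPM in APP/PS1 and 336 to 401 in WT, without overlap, and 9 of the 12 passed the test, all higher. Sums of border macrophage markers (7.61 to 12.6 against 7.34 to 13.5, with 3 of 8 markers high enough to test) overlapped between the genotypes. The same held for monocyte and neutrophil markers (0.278 to 2.27 against 0.315 to 8.04), none of whose 8 genes was high enough to test, and their highest sum was in WT male 2. The part of these marker levels in the members' differences was not tested.

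The promoters of the 4 members that rose are shown because these genes were higher in the same comparison and the sequence can be read beside their folds. They are the RefSeq sequences from 250 bases before to 50 bases after the annotated start, in the build GRCm38.p6, and 9 of the 10 members had an entry. Capitals mark the core letters of a binding motif of PU.1, the myeloid transcription factor (GAGGAA, both strands searched). The Axl window is chr7:25788684-25788983 on the minus strand, that of Pros1 chr16:62854057-62854356 on the plus strand, that of Cd9 chr6:125494711-125495010 on the minus strand, and that of Lyz2 chr10:117282223-117282522 on the minus strand.
Axl: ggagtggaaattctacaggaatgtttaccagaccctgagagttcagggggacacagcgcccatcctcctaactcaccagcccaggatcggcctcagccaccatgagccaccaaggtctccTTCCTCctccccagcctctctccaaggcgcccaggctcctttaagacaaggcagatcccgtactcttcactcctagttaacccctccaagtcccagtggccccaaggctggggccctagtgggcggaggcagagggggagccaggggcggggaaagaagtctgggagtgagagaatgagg
Pros1: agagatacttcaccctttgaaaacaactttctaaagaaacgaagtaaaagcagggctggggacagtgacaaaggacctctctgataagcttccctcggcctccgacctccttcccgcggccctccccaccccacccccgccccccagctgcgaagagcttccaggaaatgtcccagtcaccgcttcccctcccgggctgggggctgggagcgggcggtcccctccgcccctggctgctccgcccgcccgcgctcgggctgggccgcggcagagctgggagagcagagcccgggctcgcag
Cd9: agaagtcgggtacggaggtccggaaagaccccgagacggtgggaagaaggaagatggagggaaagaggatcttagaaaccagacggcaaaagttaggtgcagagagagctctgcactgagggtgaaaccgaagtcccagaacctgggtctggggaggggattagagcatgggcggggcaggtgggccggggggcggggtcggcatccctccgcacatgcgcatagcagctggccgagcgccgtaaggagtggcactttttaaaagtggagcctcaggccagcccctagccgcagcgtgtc
Lyz2: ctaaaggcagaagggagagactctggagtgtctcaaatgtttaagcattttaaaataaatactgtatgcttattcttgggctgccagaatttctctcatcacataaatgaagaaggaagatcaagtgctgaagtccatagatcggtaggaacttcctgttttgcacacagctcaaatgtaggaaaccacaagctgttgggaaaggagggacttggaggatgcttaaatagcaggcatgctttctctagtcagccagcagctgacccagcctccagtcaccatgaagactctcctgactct

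Among these 4 windows only that of Axl held the PU.1 core letters, once, as TTCCTC beginning 130 bases before the start. Of all 32851 RefSeq promoters of this length, 28.3% held them. Of the members that did not pass the test, one of the 2 Spp1 entries held the core letters, beginning 113 bases before its start. The AP-1 letters TGANTCA, present in 7.81% of all promoters, were found only in Gpnmb, as TGACTCA in the 50 bases after the start. The E-box letters CACGTG, present in 7.15%, were in none of the 9 members' windows. These motifs do not overlap each other. GC content was 60.3% in Axl, 66.7% in Pros1 and 61.3% in Cd9 but 44.3% in Lyz2, against a median of 52.7% and quartiles of 45.7% and 61.7% over all promoters.

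**Figure D1:**
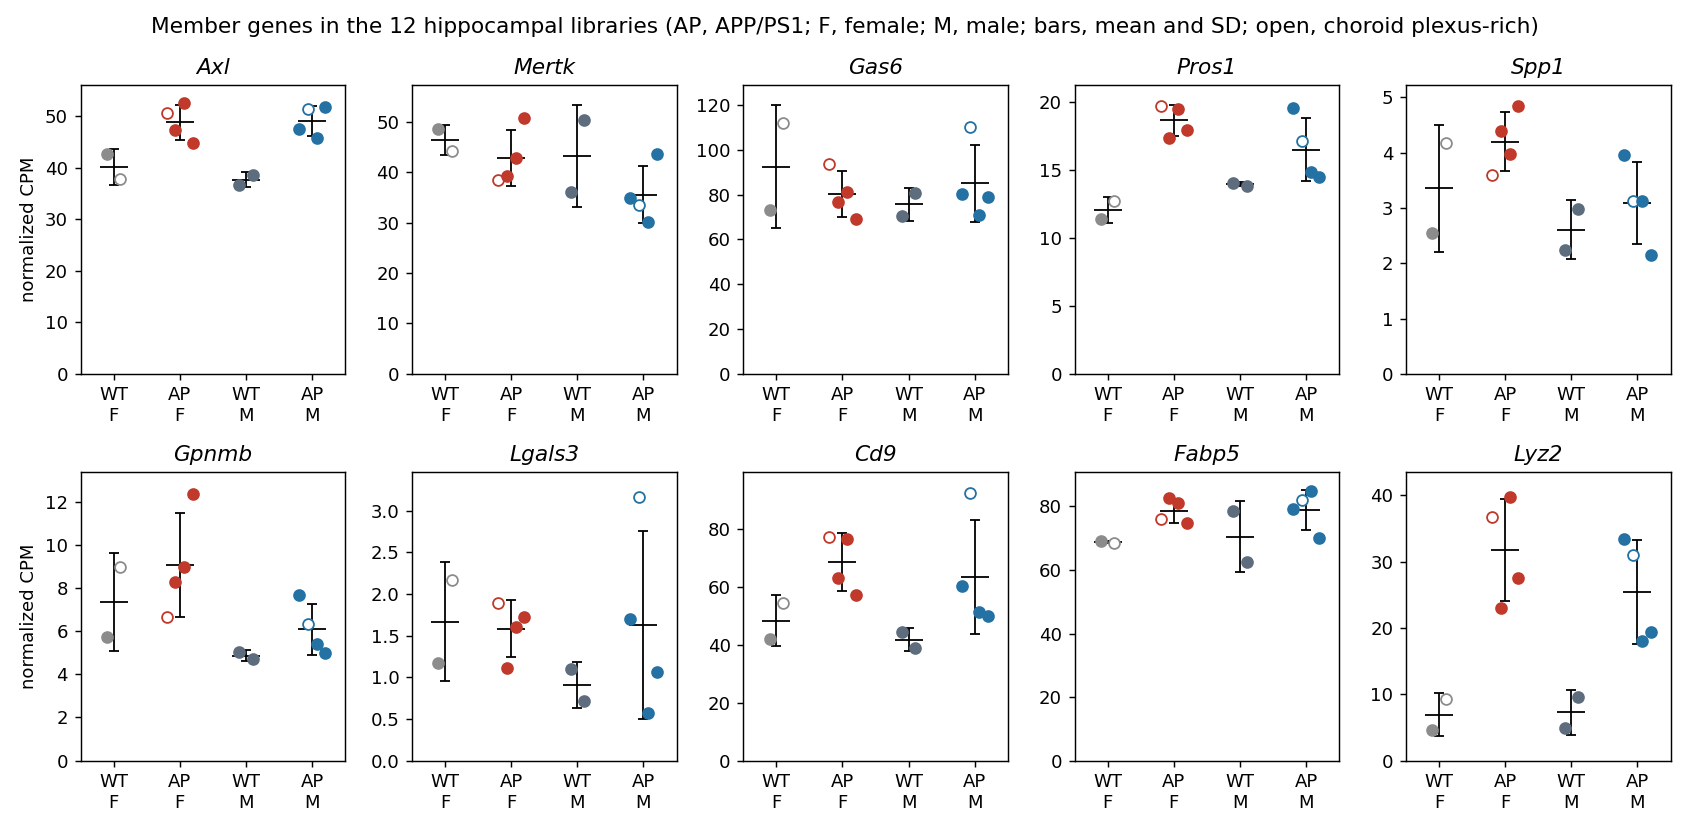
Normalized CPM (y axis, from 0) of each member in every library, by genotype and sex (x axis), with the mean and SD of each group as bars and the 3 choroid plexus-rich libraries as open circles. For Axl, Pros1 and Lyz2 all 8 APP/PS1 libraries lie above all 4 WT libraries, and for the other 7 members the genotypes overlap.

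Axl is the TAM receptor that inflammation induces, and its gene (chromosome 7, 25757273 to 25788705, minus strand, GRCm38) contributed 1393 to 2287 counts per library. Its levels in APP/PS1 females 1 to 4 were 50.5, 47.4, 52.6 and 44.8 CPM, and those in APP/PS1 males were 47.6, 51.4, 45.7 and 51.8 CPM. The 2 WT females had 42.7 and 37.8 CPM and the 2 WT males 36.6 and 38.7 CPM. Every APP/PS1 animal thus stood above every WT animal, and the males and females of each genotype shared one range. With both sexes averaged, Axl rose by a log2 fold change of 0.34 (SE 0.06, n = 8 APP/PS1 and 4 WT, adjusted p = 0.00999, edgeR's quasi-likelihood test with Benjamini-Hochberg adjustment). Of 23 alternative fits 22 called it too, and the call was lost without both the RUV factors and the 3 choroid plexus-rich libraries (0.27, adjusted p = 0.251).

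Mertk is the TAM receptor that resting microglia and astrocytes carry. Its levels were 38.6, 39.2, 42.8 and 50.7 CPM in APP/PS1 females and 35.0, 33.6, 30.2 and 43.6 CPM in APP/PS1 males. WT females had 48.5 and 44.3 CPM and WT males 36.2 and 50.5 CPM. Here the genotypes overlapped, and the highest APP/PS1 library and the highest WT library were nearly level. The fitted ratio of APP/PS1 to WT was 0.879 (95% interval 0.743 to 1.04, edgeR adjusted p = 0.691), an interval that reaches down to 0.743 and up to 1.04. The receptors therefore differed in their call, but the difference between them was not tested. Tyro3, the remaining TAM receptor, which neurons express, had 98.6 to 145 CPM in APP/PS1 and 117 to 123 CPM in WT, with the WT values inside the APP/PS1 range.

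Gas6 encodes the ligand that binds all TAM receptors. It stood at 93.5, 76.6, 81.2 and 69.0 CPM in APP/PS1 females and at 80.1, 110.2, 70.8 and 78.9 CPM in APP/PS1 males. WT females had 73.1 and 112.0 CPM and WT males 70.5 and 80.9 CPM. The 3 choroid plexus-rich libraries were the highest (93.5 to 112.0 CPM against 69.0 to 81.2 CPM in the other 9), whichever their genotype. The fitted ratio of APP/PS1 to WT was 0.984 (95% interval 0.912 to 1.06, edgeR adjusted p = 0.94). The sign of so small a difference turned without the 3 choroid plexus-rich libraries (log2 fold change 0.04), without WT female 2 (0.05) and without WT male 2 (0.01). Tmem255b overlaps its exons on the opposite strand, and since the strand setting of the counting is not given in the sources used here, its counts are uncertain to that extent.

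Pros1 encodes protein S, the other TAM ligand and a plasma anticoagulant cofactor (chromosome 16, 62854307 to 62929346, plus strand). APP/PS1 females had 19.7, 17.3, 19.5 and 17.9 CPM and APP/PS1 males 19.5, 17.1, 14.8 and 14.5 CPM. WT females had 11.3 and 12.7 CPM and WT males 14.0 and 13.8 CPM. All 8 APP/PS1 libraries were above all 4 WT libraries, closely so in the lowest APP/PS1 males and by a wide margin in females. With both sexes averaged, Pros1 rose by a log2 fold change of 0.41 (SE 0.08, n = 8 and 4, edgeR adjusted p = 0.0243). The call did not hold without WT female 1 (log2 fold change 0.39, adjusted p = 0.122), nor without both the RUV factors and the 3 choroid plexus-rich libraries (0.46, adjusted p = 0.178).

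Spp1 encodes osteopontin, a secreted integrin and CD44 ligand. It was low, at 85 to 192 counts per library. The gene model Gm42793, with 0 counts, overlaps its exons on the same strand. How reads shared by 2 genes were counted is not given in the sources used here, so the counts of Spp1 are uncertain to that extent. APP/PS1 females had 3.59, 4.39, 3.98 and 4.84 CPM and APP/PS1 males 3.96, 3.12, 3.12 and 2.16 CPM. WT females had 2.55 and 4.17 CPM and WT males 2.23 and 2.99 CPM. The lowest library of all was an APP/PS1 male and the highest an APP/PS1 female, so the genotypes overlapped along the whole range. The fitted fold was 1.17 (95% interval 0.914 to 1.49, edgeR adjusted p = 0.756), so a rise of up to 1.49-fold lies within the interval.

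Gpnmb encodes a transmembrane glycoprotein of lysosome-rich macrophages. Its levels were 6.65, 8.30, 8.97 and 12.4 CPM in APP/PS1 females and 7.66, 6.34, 5.40 and 4.97 CPM in APP/PS1 males. WT females had 5.75 and 8.97 CPM and WT males 5.04 and 4.69 CPM. APP/PS1 female 4 stood above all the others, and WT female 2, a choroid plexus-rich library, was as high as APP/PS1 female 3. The fitted fold was 1.16 (95% interval 0.953 to 1.42, edgeR adjusted p = 0.69).

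Lgals3 encodes galectin-3, a secreted galactoside-binding lectin. It was the lowest member, with 25 to 125 counts per library and a CPM of at least 1 in 10 of the 12 libraries. The levels were 1.90, 1.11, 1.61 and 1.72 CPM in APP/PS1 females, 1.69, 3.17, 0.569 and 1.07 CPM in APP/PS1 males, 1.17 and 2.17 CPM in WT females and 1.10 and 0.712 CPM in WT males. The 3 choroid plexus-rich libraries again stood above the other 9 (1.90 to 3.17 against 0.569 to 1.72 CPM). The fitted fold was 1.15 (95% interval 0.826 to 1.59, edgeR adjusted p = 0.855), the widest interval after that of Lyz2.

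Cd9 encodes a tetraspanin that many cell types carry, oligodendrocytes and endothelium among them (chromosome 6, 125460266 to 125494791, minus strand). APP/PS1 females had 77.2, 63.0, 76.6 and 57.4 CPM and APP/PS1 males 60.2, 92.3, 51.4 and 50.1 CPM. WT females had 42.2 and 54.5 CPM and WT males 44.5 and 38.9 CPM. Of the 8 APP/PS1 libraries 6 exceeded the highest WT library, and within each sex every APP/PS1 animal exceeded both WT animals. That highest WT library was WT female 2, and in each of the 3 groups with a choroid plexus-rich library this library was the highest of its group. Among the other 9 libraries the genotypes did not overlap (50.1 to 76.6 CPM in APP/PS1 against 38.9 to 44.5 CPM in WT).

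With both sexes averaged, Cd9 rose by a log2 fold change of 0.50 (SE 0.09, n = 8 and 4, edgeR adjusted p = 0.0288). Its direction held in each of 23 alternative fits, in 17 of which it was called. The call was lost without WT female 1 (log2 fold change 0.54, adjusted p = 0.116), without WT female 2 (0.50, with an adjusted p at the threshold itself), without WT male 2 (0.46, adjusted p = 0.129), without the RUV factors (0.55, adjusted p = 0.369), without both these and the 3 choroid plexus-rich libraries (0.51, adjusted p = 0.104) and without the expression filter (0.49, adjusted p = 0.124). The gene model Gm26728 overlaps Cd9 on the opposite strand, and 172 bases of Cd9 are 95.9% identical to Topbp1. Topbp1 held 12773 counts over all libraries against 28986 for Cd9. The match covers 172 of the 2044 exonic bases of Cd9, so the whole count of Topbp1 does not measure the reads that could be shared. How many reads of Cd9 either gene affects is not known.

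Fabp5 encodes a fatty acid-binding protein that glia and other cells use in lipid transport. It had 76.0, 82.7, 81.0 and 74.9 CPM in APP/PS1 females, 79.1, 81.9, 84.7 and 70.0 CPM in APP/PS1 males, 69.0 and 68.6 CPM in WT females and 78.5 and 62.6 CPM in WT males. All 4 APP/PS1 females stood above both WT females, while WT male 1 was within the range of the APP/PS1 males. The fitted fold was 1.12 (95% interval 1.03 to 1.22, unadjusted p = 0.024, edgeR adjusted p = 0.40). Without WT male 1 Fabp5 passed the test, at a log2 fold change of 0.26 (adjusted p = 0.0823). Its 3 processed pseudogenes with near-identical sequence held 448 counts over all libraries against 37282 for Fabp5.

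Lyz2 encodes lysozyme M of macrophages and microglia, an enzyme that cleaves bacterial cell walls (chromosome 10, 117277331 to 117282321, minus strand). It stood at 36.7, 23.1, 39.7 and 27.6 CPM in APP/PS1 females and at 33.4, 31.0, 18.0 and 19.5 CPM in APP/PS1 males. WT females had 4.61 and 9.25 CPM and WT males 4.89 and 9.64 CPM. The lowest APP/PS1 library was 18.0 and the highest WT library 9.64 CPM, so the genotypes were far apart, and the spread within APP/PS1 was wide in both sexes. With both sexes averaged, Lyz2 rose by a log2 fold change of 1.97 (SE 0.31, n = 8 and 4, edgeR adjusted p = 0.0371). Its neighbour Lyz1, 95.8% identical over 1264 bases, had 13 counts in all libraries together against 10493 for Lyz2.

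The rise of Lyz2 kept its direction in all 23 alternative fits, with log2 fold changes from 1.74 to 2.26, and was called in 18. The calls lost were those without WT female 1 (log2 fold change 1.83, adjusted p = 0.175), without WT female 2 (2.18, adjusted p = 0.117), without APP/PS1 male 2 (1.92, adjusted p = 0.159), without both the RUV factors and the 3 choroid plexus-rich libraries (2.20, adjusted p = 0.116) and with the replicate number as a block (2.01, adjusted p = 0.313).

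**Figure D2:**
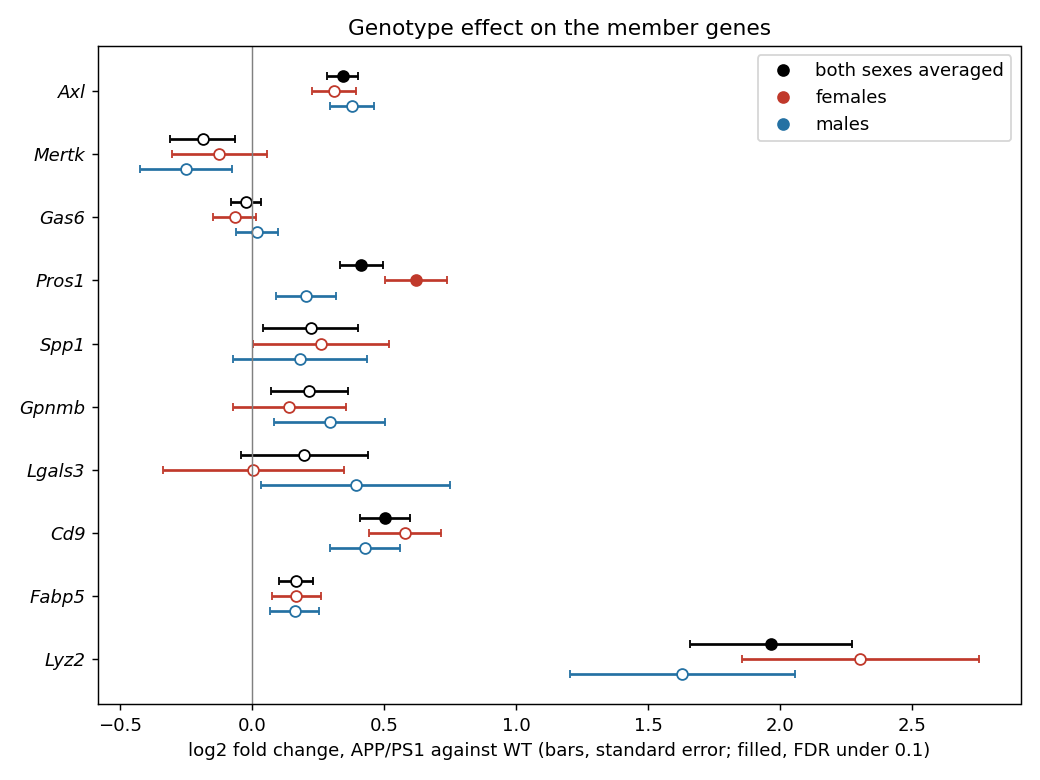
Log2 fold change of APP/PS1 against WT (x axis) for each member (y axis), averaged over the sexes (black), in females (red) and in males (blue), with the standard error as bars and filled circles for an FDR under 0.1. Lyz2 lies near 2 and all others lie below 1; Axl, Pros1, Cd9 and Lyz2 are filled for both sexes averaged, and Pros1 also in females.

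For Axl, Pros1 and Lyz2 all 8 APP/PS1 libraries were above all 4 WT libraries, which makes 3 of the 10 members against 1.37% of all genes tested. No member was lower in all 8. Beside the members' own levels stands the summed level of the 12 microglia markers, which was higher in all 8 APP/PS1 libraries as well. Taken over this sum, Lyz2 was 3.43% to 5.46% of the marker sum in APP/PS1 libraries and 1.15% to 2.75% in WT libraries, a mean log2 difference of 1.33. It was the only member whose ratio was higher in all 8 APP/PS1 libraries, against 0.168% of all genes.

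The ratios of Axl, Mertk and Gas6 to the marker sum were lower in all 8 APP/PS1 libraries than in all 4 WT libraries. These are 3 of the 10 members, a smaller share than the 70.0% of all genes tested that did the same. The mean log2 difference of the ratio was -0.39 for Axl, -0.92 for Mertk, -0.29 for Pros1 and -0.18 for Cd9. The ratios of Pros1 and Cd9 overlapped between the genotypes. Lyz2 alone was higher on both scales, per library and relative to the marker sum. The ratio is a description and takes no account of how much of each gene's RNA comes from other cell types.

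**Figure D3:**
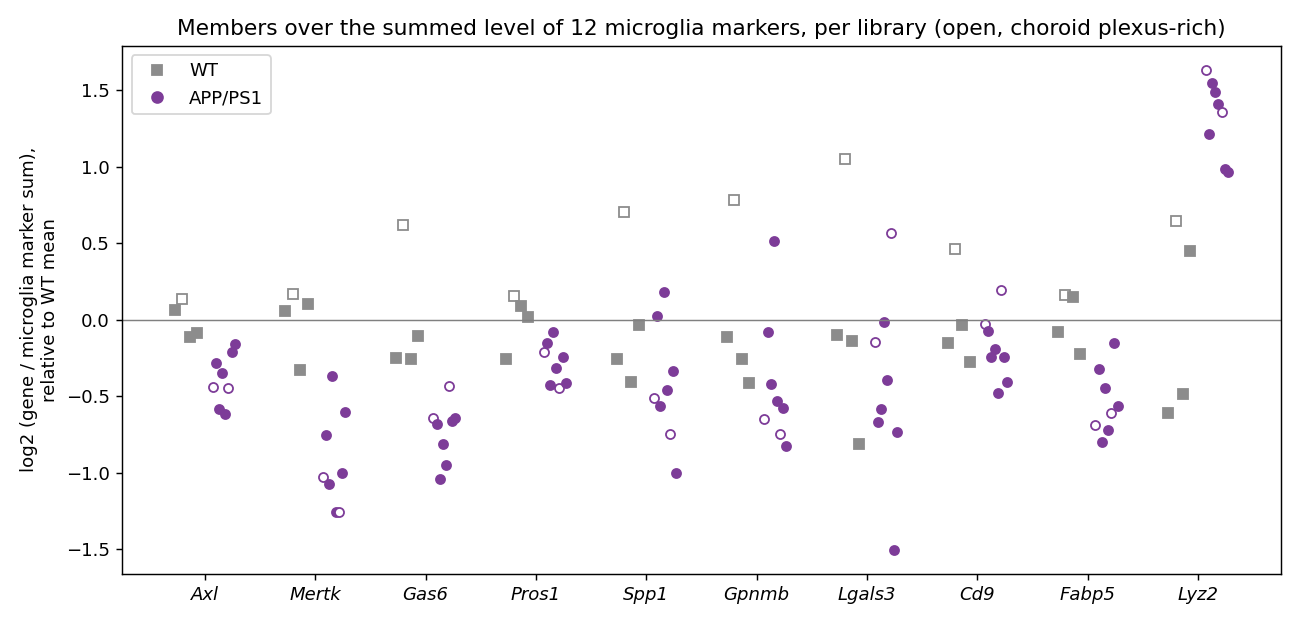
Log2 ratio of each member (x axis) to the summed level of 12 microglia markers in each library, relative to the WT mean (y axis, 0 is the WT mean), with squares for WT, circles for APP/PS1 and open symbols for the 3 choroid plexus-rich libraries. Only for Lyz2 do all 8 APP/PS1 libraries lie above all 4 WT libraries.

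The comparison in each sex asked whether the members differed by genotype in females and in males alone, with 4 APP/PS1 and 2 WT animals each. In females 1 member passed, Pros1, with a log2 fold change of 0.62 (SE 0.12, n = 4 and 2, edgeR adjusted p = 0.0376), against 0.780% of all genes that passed with higher counts in APP/PS1. That call was lost without APP/PS1 female 1 (log2 fold change 0.59, adjusted p = 0.111), without WT female 1 (0.58, adjusted p = 0.427) and without WT female 2 (0.66, adjusted p = 0.114). At an unadjusted p under 0.05 in edgeR's test, 4 members passed in females, as did 1491 of the 15521 genes tested. These were Pros1 and the other members called in the averaged comparison. The latter had log2 fold changes of 0.31 for Axl (edgeR adjusted p = 0.175), 0.58 for Cd9 (adjusted p = 0.126) and 2.31 for Lyz2 (adjusted p = 0.126) in females.

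In males 0 members passed edgeR's quasi-likelihood test, against 0.161% of all genes, and 3 had an unadjusted p under 0.05, which 5.50% of all genes had. These were Axl, Cd9 and Lyz2, with log2 fold changes of 0.38 (SE 0.08, edgeR adjusted p = 0.182), 0.43 (SE 0.13, adjusted p = 0.553) and 1.63 (SE 0.43, adjusted p = 0.493). Pros1 had a log2 fold change of 0.20 (SE 0.11, adjusted p = 0.996) in males. By edgeR's likelihood ratio test 2 members passed in males, Axl and Lyz2, and by DESeq2 3, these and Cd9. Over all genes these tests also called more in males than the 0.161% above, with 0.670% and 0.689% passing with higher counts in APP/PS1.

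A call in one sex and not in the other does not show that the sexes differ, so the interaction of genotype and sex was tested. No member passed, as 0 of all genes did (0%), and at an unadjusted p under 0.05 only Pros1 did, against 3.78% of all genes. The effect on Pros1 was larger in females by 0.42 on the log2 scale (SE 0.16, unadjusted p = 0.0241, edgeR adjusted p = 0.998). The fold of Lyz2 in females was 1.60 times its fold in males (95% interval 0.709 to 3.60), an interval with either direction in it.

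Females and males were also compared within APP/PS1, where each group has 4 animals. No member passed edgeR's test at an FDR under 0.1, which 0.0902% of all genes did in either direction. At an unadjusted p under 0.05, Gpnmb and Spp1 were higher in females, as were 2.94% of all genes. Gpnmb had a log2 difference of 0.59 (SE 0.16, unadjusted p = 0.00324, edgeR adjusted p = 0.738) and Spp1 one of 0.47 (SE 0.20, unadjusted p = 0.0345, edgeR adjusted p = 0.904). For both genes the APP/PS1 females and males overlapped in single animals. In WT the female mean was also above the male mean, at 7.36 against 4.87 CPM for Gpnmb and 3.36 against 2.61 CPM for Spp1. With n = 2 per group, that difference was not tested. The interaction of genotype and sex was -0.15 for Gpnmb (SE 0.31, unadjusted p = 0.626, edgeR's quasi-likelihood test) and 0.08 for Spp1 (SE 0.37, unadjusted p = 0.83).

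Levels of different genes were compared per kilobase of exon, with the exons of all annotated transcripts of a gene merged. This length was 3567 bases for Fabp5, 6514 for Gpnmb and 1316 for Lyz2. It can exceed the length of the mRNA present, which lowers the value, so the order below depends on this choice. In WT hippocampus Gas6 was highest at 33.0 CPM per kb (SD 7.50, n = 4), followed by Cd9 at 22.0 and Fabp5 at 19.5, whose ranges overlapped. Mertk followed at 10.3, Axl at 7.73 and Lyz2 at 5.39, with each overlapping the next. The lowest were Pros1 at 3.18, Spp1 at 1.81, Gpnmb at 0.939 and Lgals3 at 0.694 CPM per kb. In APP/PS1 hippocampus Lyz2 moved from the sixth place to the fourth, at 21.7 CPM per kb (SD 6.05, n = 8), overlapping Fabp5 at 22.1. Cd9 at 32.3 reached the level of Gas6 at 32.4, and Axl at 9.73 stood above Mertk at 9.04, with overlap in both pairs. The order of the lowest 4 was as in WT.

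The members were set beside other gene lists of the same biology. Among 19 tested of 20 late plaque-associated microglial genes, none of them a member, 10 rose and none fell. Their median log2 fold change was 0.84. The 3 with the smallest p were Cst7, a cysteine protease inhibitor, at 7.04, the integrin subunit Itgax at 4.05 and the chemokine Ccl6 at 2.94. Their mean WT levels were 0.0746, 0.236 and 1.17 CPM. Cst7 and Itgax thus passed the expression filter through APP/PS1 libraries alone, and the count and median of this list include such genes. Among 10 early genes of this programme, 7 rose and none fell, with a median of 0.85. By smallest p these were headed by Cd52 at 2.50, B2m, the light chain of class I MHC, at 0.74 and the adaptor Tyrobp at 1.68. Beside these medians that of the members was 0.22, and Lyz2 was the only member above them.

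Genes for the recognition and uptake of apoptotic cells, the process that TAM receptors serve, showed a median log2 fold change of -0.0047 over 23 tested of 28. One of them, Cd300lf, a phospholipid receptor of myeloid cells, rose by 2.26 on the log2 scale (SE 0.40, edgeR adjusted p = 0.014), and none fell. Its mean level was low, at 0.852 CPM in APP/PS1 and 0.169 CPM in WT. Cd300lf thus passed the expression filter through APP/PS1 libraries alone. Of the paralogs of the members, 2 of 10 tested rose: Lgals9, a galectin like Lgals3, by 0.60 (edgeR adjusted p = 0.0208) and Cd63, a tetraspanin like Cd9, by 0.34 (adjusted p = 0.0741). Among 8 binding partners of osteopontin and galectin-3, Lgals3bp, the galectin-3-binding protein, rose by 1.12 (SE 0.13, edgeR adjusted p = 0.00221), while Spp1 and Lgals3 themselves did not pass. Cd63 is also among the early genes, and Tyro3, Itgav, Itgb3 and Itgb5 are in both the uptake list and one other.

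**Figure D4:**
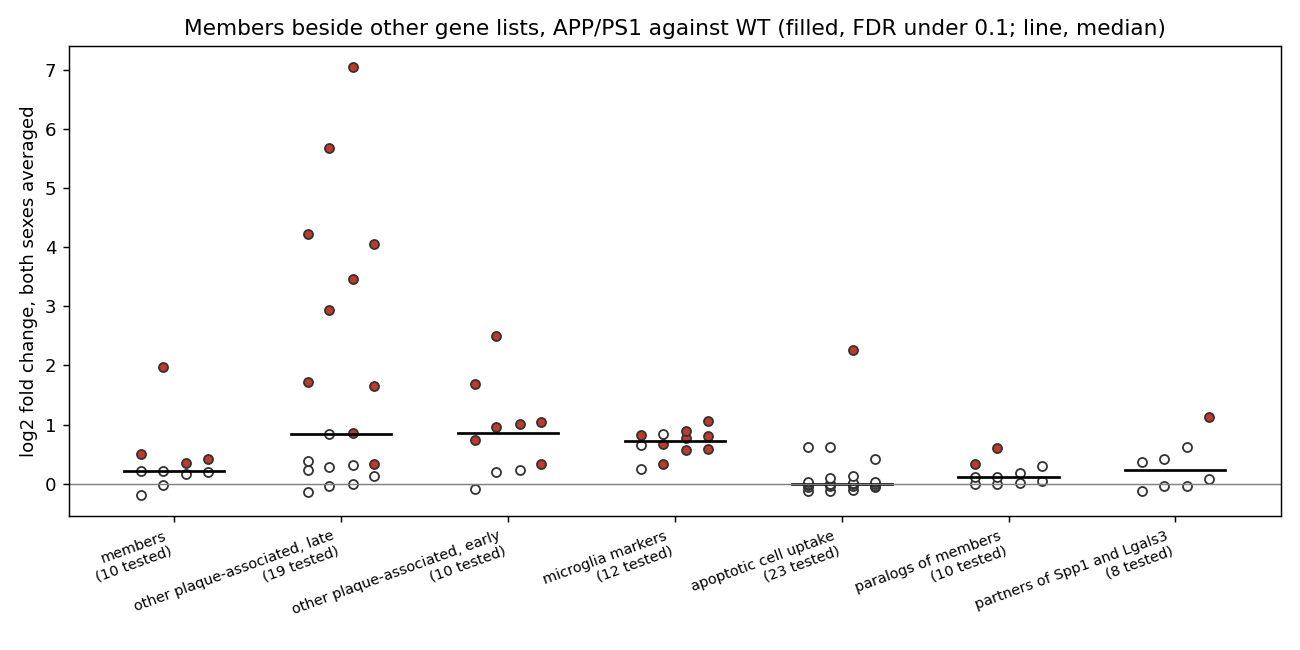
Log2 fold change of APP/PS1 against WT with both sexes averaged (y axis) for the tested genes of each list (x axis), with filled circles for an FDR under 0.1 and a line at the median. The 10 members have 4 filled circles and a median of 0.22, and the list of late genes has 10 filled circles and a median of 0.84. Some late genes passed the expression filter through APP/PS1 libraries alone.

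Over the 12 libraries, the gene most like Axl by Pearson correlation of log2 CPM was Csf1r, the receptor that microglia need to survive (r = 0.958), followed by Slamf9 (r = 0.948). Those most like Pros1 were Plek (r = 0.958) and Slc15a3 (r = 0.953), and those most like Cd9 were Npc2, a lysosomal cholesterol transporter (r = 0.954), and Eif2ak2 (r = 0.952). Most like Lyz2 were the gene model Gm8995 (r = 0.978) and Ctsd, a lysosomal protease (r = 0.978). These points share the genotype difference and the choroid plexus-rich libraries. Within the 6 other APP/PS1 libraries r was 0.958 for Axl and Csf1r, 0.982 for Pros1 and Plek, 0.902 for Pros1 and Slc15a3, 0.925 for Lyz2 and Gm8995 and 0.962 for Lyz2 and Ctsd. It was lower there for Cd9 with Npc2 (0.826) and with Eif2ak2 (0.708) and for Axl with Slamf9 (0.602). These 6 libraries are among the 12 over which the genes were picked, so their r is no independent check. Csf1r is also among the 12 microglia markers summed above.

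Among the members themselves, the same 6 APP/PS1 libraries gave r = 0.943 for Pros1 and Lyz2, 0.901 for Spp1 and Gpnmb, 0.856 for Cd9 and Lyz2, 0.835 for Axl and Gas6 and 0.832 for Lgals3 and Lyz2. The lowest was -0.662, for Mertk and Fabp5. With 6 animals from both sexes, these values describe the libraries and no more.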

How the data were processed

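The 12 libraries were directional mRNA libraries of whole right hippocampi. After trimming with Trimmomatic and alignment by STAR to GRCm38, the authors obtained counts per Ensembl gene from HTSeq, and these raw counts are what they deposited. The versions, the annotation release and how HTSeq treated strand and multi-mapping reads are not given in the sources used here, so reads of antisense or near-identical genes may have been shared or dropped. Of 55573 identifiers 55480 matched GENCODE M21, from which symbols, positions and overlaps were taken. Exonic lengths for values per kilobase are those of that annotation, with all exons of a gene merged.

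The 15521 genes that reached 1 CPM in 3 or more libraries were tested. A filter on log2 CPM would keep 14008. Upper-quartile scaling was used, and the model held 2 RUV factors from an own implementation of RUVg, whose control genes were those outside the 5000 highest-ranked of a preliminary fit. One model for the 4 groups was fitted with edgeR 4.0.16 (R 4.3.3), with two-sided quasi-likelihood tests of 5 contrasts, Benjamini-Hochberg adjustment over all genes tested, and FDR under 0.1 as the threshold. Intervals are 95% intervals of the fitted fold, set from its standard error by a normal approximation, and so are somewhat narrow for 12 samples. The procedure was tested on simulated counts, where it recovered most changed genes and made somewhat more false calls than the threshold states. The smallest simulated rise was larger than those of Axl, Pros1 and Cd9, so the recovery does not extend to changes of their size. Total counts ranged from 36714316 to 50643565, and every pair of libraries of a group differed by more than sampling noise (chi-square per degree of freedom 14.3 to 66.5 over 14 pairs). A library was counted as choroid plexus-rich with Ttr over 1000 CPM.

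The alternatives tried included TMM scaling, DESeq2 1.42.0, the likelihood ratio test of edgeR, other or no filter, other or no RUV factors, a choroid plexus score in their place, the replicate number as a block, leaving out the 3 choroid plexus-rich libraries and leaving out each animal. Leaving out both the RUV factors and those libraries was added after seeing the data. The members, the gene lists and the markers were chosen with earlier results of these data known. Named beside the members were, in each context list, the 3 called genes with the smallest p, then Tyro3, Lyz1, Ttr, App, Prnp and, for each called member, the 2 genes correlated most closely with it. Some results under this rule are not reported here.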

Additional observations from a re-analysis of the deposited data

How the results depend on the processing

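With both sexes averaged, 4 members passed the test. In 23 alternative fits Axl was called in 22 with log2 fold changes from 0.27 to 0.41, Pros1 in 21 (0.37 to 0.47), Lyz2 in 18 (1.74 to 2.26) and Cd9 in 17 (0.42 to 0.56), all in the same direction. Leaving out each animal in turn gave 1 to 5 members called, with 1 without WT female 1 and 2 without WT female 2, and leaving out a WT animal leaves 1 in that sex, assumed to vary like the other groups. Without both the RUV factors and the 3 choroid plexus-rich libraries 0 members were called with both sexes averaged and 0 in females. In females, where 1 member passed, the likelihood ratio test called 4, DESeq2 3, 1 RUV factor 3, the choroid plexus score 2 and the fit without the 3 choroid plexus-rich libraries 2, and leaving out each animal gave 0 to 2. In males, where 0 passed, the likelihood ratio test called 2, DESeq2 3 and the fit without the 3 choroid plexus-rich libraries 1. The counts over all genes moved as well: in the fit without RUV factors and those libraries from 297 to 74 with both sexes averaged and from 127 to 32 in females, and with the likelihood ratio test and DESeq2 to 320 and 311 in females and from 25 to 134 and 131 in males. The causes of these changes were not tested. Same-numbered samples did not regularly deviate together (correlations from -0.57 to 0.65 over 14 pairs). With 2 WT animals per sex the deviations of a WT group mirror each other, so this cannot decide whether the numbers pair the animals. The fit with the replicate block called 3 members with both sexes averaged, 1 in females and 0 in males, losing Lyz2.

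Directions turned only for members that did not pass. With both sexes averaged the log2 fold change of Gas6 was 0.038 without the 3 choroid plexus-rich libraries and 0.035 without the RUV factors as well, and ranged from -0.089 to 0.051 when each animal was left out. In females Gas6 was 0.071 and 0.051 under the same settings, with a range of -0.18 to 0.057, and Lgals3 was -0.011 with DESeq2, -0.019 with TMM, -0.11 with no expression filter and -0.080 with no RUV factors, with a range of -0.22 to 0.067. In females, leaving out each animal gave -0.17 to 0.67 for Spp1 and -0.32 to 0.54 for Gpnmb. In males it gave -0.47 to 0.018 for Mertk, -0.065 to 0.098 for Gas6 and -0.034 to 0.47 for Spp1. The WT groups of 2 animals per sex limit every result within a sex, and for Spp1 and Lgals3 the counts per library are low as well.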
